A study of Rattus norvegicus with 6 samples.

Results

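Mature oligodendrocytes are the cells that wrap axons of the central nervous system in myelin. In single-nucleus RNA-seq of the rat nucleus accumbens shell, 3862 of 37456 kept nuclei (10.3%) were taken as mature oligodendrocyte nuclei. A nucleus was kept with at least 500 UMIs (unique molecular identifiers, each standing for 1 captured RNA molecule), at least 300 genes and under 5% mitochondrial UMIs. It was a member when at least 3 of 6 myelin genes (Mog, Mag, Mobp, Opalin, Hapln2 and Ermn) had a UMI, the precursor gene Pdgfra had none, Pde10a of spiny neurons had fewer than 5 and Gpr17 fewer than 2. Members were thus chosen by the measured counts of these genes, so the levels of these genes, and the contrast of members with other nuclei, are given below as a description without a test.

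The tissue came from Long-Evans rats of 90 to 100 days, housed with their own sex, and neither a treatment nor a genetic change is named in the labels. Each of the 6 libraries held nuclei from punches of 4 animals of 1 sex, giving 3 female and 3 male pools and 24 animals in all. The replicate is the pool, so p-values measure the spread between pools and cannot speak of single animals. The labels of male pool 1 and female pool 3 carry a strain tag and those of the other 4 pools do not. The first 2 are called label set A and the others label set B, and the sources used here do not say what the sets stand for.

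Oligodendrocytes arise from precursor cells marked by the receptor gene Pdgfra, pass through a committed stage marked by Gpr17, and then switch on a program of myelin proteins and lipids under the transcription factors Sox10 and Myrf. Compact myelin is held together by the basic protein Mbp, with Mog and Mag on its outer and inner faces, and its membrane is rich in cholesterol and galactolipids. Mature cells also feed the axon, take up potassium, and respond to steroid hormones: glucocorticoids induce the kinase gene Sgk1 and the transcription factor genes Klf9 and Zbtb16 in many tissues. The shell is a ventral part of the striatum in which spiny neurons are the main cell type.

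The pools differed in depth and in the purity of these nuclei. Members numbered 560, 106 and 1532 in the female pools and 807, 398 and 459 in the male ones. Values by pool are given throughout in the order of pools 1, 2 and 3. Members carried 255642 UMIs in female pool 2, the lowest total, and 5537888 in female pool 3, the highest. The median per nucleus ran from 1703 to 2636 UMIs over pools. No 2 pools of 1 sex held near-identical counts, since the chi-square per degree of freedom between pools of 1 sex was at least 3.42, and the pools of a pair shared 3 to 52 of their barcodes, with 2 shared member barcodes over all 15 pairs.

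Neuronal RNA was present in the members and its amount moved with the pool. Syt1, the calcium sensor of synaptic vesicle release, had 839, 2378 and 2714 CPM in the female pools and 1524, 556 and 641 CPM in the male ones, where CPM is the count of UMIs scaled to the same total in each library. In all other kept nuclei it had 4146, 4424 and 4705 CPM in the female pools and 4525, 3935 and 3074 CPM in the male ones. The summed level of the 9 measured neuron markers in members was 24.1%, 54.7% and 58.6% of that in other nuclei in the female pools, and 38.1%, 18.8% and 26.9% in the male ones. The female pools thus spanned 1489 to 3905 CPM of neuron markers and the male pools 1098 to 2469 CPM, and none of the 9 markers was at 0 in all pools. The main results are therefore also given for the 2017 members (52.2%) that had at most 1 UMI of Syt1 and Snap25 together and under 6000 UMIs, a restriction added after seeing the data. Such nuclei as a share of members made 80.2, 61.3 and 29.9% in the female pools and 42.6, 83.4 and 80.4% in the male ones. Their neuron marker sum was 337 to 605 CPM, or 5.45% to 9.07% of that in other nuclei. That sum includes Syt1 and Snap25, which the restriction uses, so its fall was in part set in advance. Markers of spiny neurons summed to 577 to 1510 CPM in all members and 479 to 1220 CPM in these. The latter is 16.6% to 27.4% of the level in other nuclei. The falls of these sums cannot be compared, since the rule caps Pde10a and the restriction caps Syt1 and Snap25. The share of members with little neuron RNA was lower in both set A pools than in any set B pool. Female pool 2 was the lowest of set B.

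**Figure D1:**
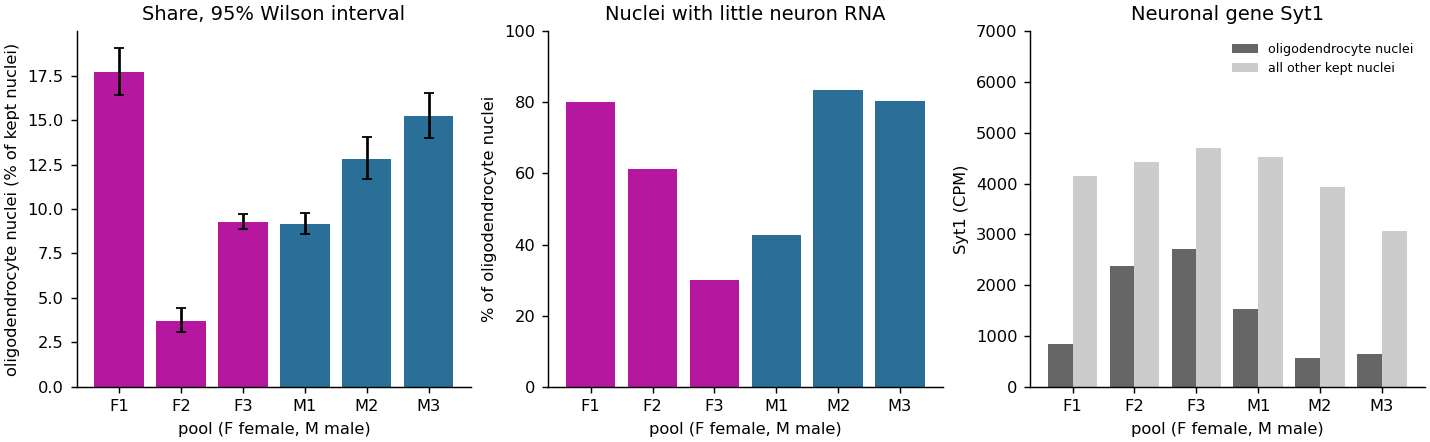
Bars show, for each pool, the share of oligodendrocyte nuclei among kept nuclei with its 95% Wilson interval (left), the percent of them with little neuron RNA (middle) and Syt1 in CPM in them and in all other kept nuclei (right). Female pool 2 has the lowest share, at 3.69%, and female pool 3 has the lowest percent of nuclei with little neuron RNA and the highest Syt1 in oligodendrocyte nuclei.

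The label held against genes that the rule did not use. Mbp had 5152, 3947 and 2575 CPM in the female pools and 3671, 5035 and 4545 CPM in the male ones, against a mean of 212 CPM in the other nuclei. Cldn11, the claudin gene of myelin tight junctions, had 359.5, 297 and 207 CPM in the female pools and 332, 397 and 398 CPM in the male ones, against 21 CPM. Car2, the carbonic anhydrase of myelin-forming cells, averaged 903 ± 230 CPM (SD, n = 6 pools) against 64.9 in other nuclei. The summed level of 13 oligodendrocyte markers outside the rule ran from 6160 to 14075 CPM in members and from 510 to 717 CPM in other nuclei, so the ranges were far apart in every pool. Within members this sum was lowest in female pool 3 and highest in male pool 3. In the members with little neuron RNA it ran from 10850 to 16749 CPM.

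**Figure D2:**
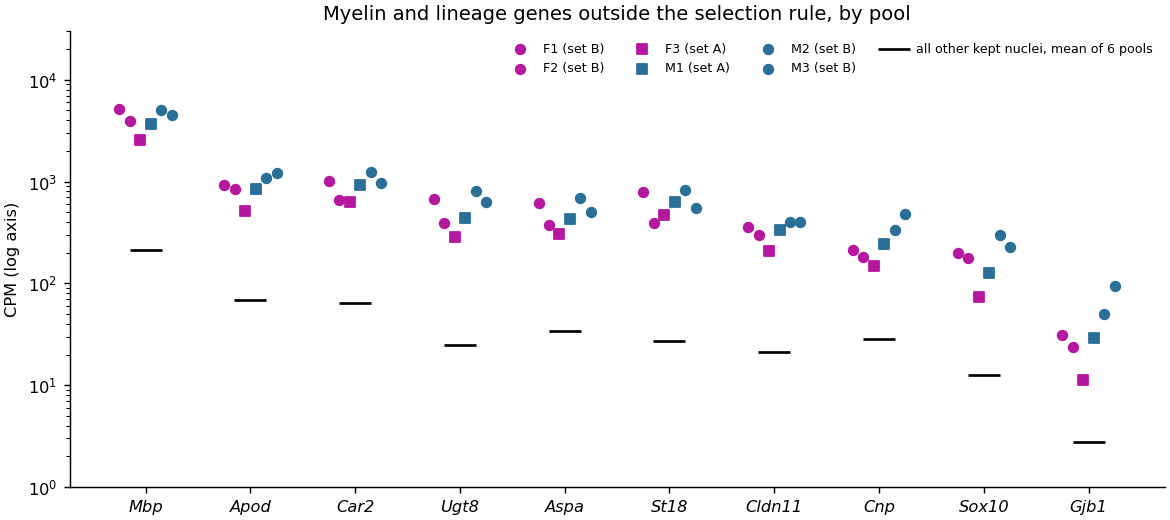
Points show the CPM (log axis) of 10 myelin and lineage genes outside the rule in oligodendrocyte nuclei of each pool, squares for label set A and circles for set B; black dashes show the mean of the 6 pools in all other kept nuclei. Every point lies above the dash of its gene, and female pool 3 is the lowest pool for 9 of the 10 genes, St18 being the exception.

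Traces of other cell types were read from their marker sums. The mean sums of astrocyte and microglial markers were 396 and 98.9 CPM in members, and 348 and 54.8 CPM in other nuclei. Committed precursor markers averaged 1302 CPM in members and 370 CPM in other nuclei, and endothelial and mural markers 51.7 and 122 CPM. Astrocyte markers summed to 275 to 533 CPM in members and 291 to 424 CPM in other nuclei, and microglial markers to 40.0 to 243 CPM in members, highest in female pool 2, with 27.8 to 86.6 CPM in other nuclei. Precursor markers summed to 257 to 626 CPM in members and 947 to 1067 CPM in the rest, with Pdgfra at 0 by the rule. The Gpr17 condition removed 0 nuclei, since Gpr17 had 29 UMIs in the whole series, and a comparison with committed precursors could not be made for want of nuclei (1 passed the gate).

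The edge of the rule can be seen in the nuclei just inside and just outside it. The 987 members with 3 of the 6 genes had a mean of 3443 CPM of Mbp and 1964 CPM of Syt1. The 1071 nuclei with 2 of the 6 genes, outside the rule, had 1365 CPM of Mbp and 3154 CPM of Syt1. Members with all 6 genes (614 nuclei) had 4134 CPM of Mbp and 1073 CPM of Syt1. The 416 members with 6000 UMIs or more had 2132 CPM of Mbp and 3069.7 CPM of Syt1. Their neuron markers summed to a mean of 4575 CPM, against 6079 CPM in other nuclei. Their spiny neuron markers summed to a mean of 835 CPM, against 3707 CPM in other nuclei.

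Among 2109 genes with at least 100 CPM in members, 852 (40.4%) were higher in members than in other nuclei in every pool and 693 were lower in every pool. Leaving out the rule's genes, the highest ratios of mean CPM belonged to an unnamed transcript, AABR07046961.1, at 846 against 23.9 CPM, and to Tmem98, a membrane protein that binds Myrf, at 221 ± 57.6 against 6.29 CPM. Next came Galnt6, an enzyme of protein glycosylation, the actin scaffold Anln, the polarity adaptor Insc and the aggrecanase Adamts4, at ratios of 31.6, 31.3, 30.4 and 29.8. The 20 leading genes included Fa2h, which hydroxylates the fatty acids of myelin galactolipids, at 501 ± 106 CPM. They also included Lpar1, a receptor for lysophosphatidic acid, at 381 ± 62.4 CPM, St18, a zinc finger gene, at 609 ± 171 CPM, and the myo-inositol transporter Slc5a11 at 162 ± 40 CPM. Also among them were Prr5l, the retinoid isomerase Rpe65, Plekhh1, Plekhg3, the phosphodiesterase Pde8a, the cadherin Cdh19, LOC100302465, the Wnt inhibitor Nkd1 and Ninj2, at ratios of 22.1 to 28.9.

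Set beside 1058 precursor nuclei, some genes were shared and others were not. Sox10, which is active from the precursor on, had 183 CPM in members and 193 CPM in precursors. Bcas1, tied to early myelination, had 1091 and 1214 CPM. Myrf had 114 and 21.1 CPM, St18 had 609 and 12.4 CPM, and Lpar1 had 381 and 8.22 CPM. Olig2 went the other way, at 21 CPM in members and 66.9 CPM in precursors. All are means of 6 pools, and the 2 gates set the contrast, so no test applies.

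The promoters of the genes that define these nuclei can be read for motifs of the factors above, using windows of 250 bases before to 50 bases after the start site from RefSeq (build GRCr8). Of 10 motifs searched on both strands, chosen with the windows at hand, CTGGCAC is a form of the sequence bound by Myrf. It was in the windows of 5 of the 18 myelin structure genes with a window (Cnp, Mal, Mag, Opalin and Hapln2) and in 5.07% of all 27457 genes. The 18 include the 4 rule genes with a window, of which 3 (Mag, Opalin and Hapln2) had the motif. CTGGCAC was in 0 of the 14 leading genes with a window. The other form searched, CTGGTAC, was in 2 of the 18, in 0 of the 4 rule genes, in 2 of the 14 leading genes and in 2.34% of all genes. A match is a description of letters, not of binding. The 3 rule genes with the Myrf form are shown 5′ to 3′ on the strand of the gene, with that motif or its reverse complement GTGCCAG in capitals, as the marker genes on which the selection rests, and Sgk1 is added because the sex comparison below turns on it. The windows are chr1:249858141-249858440, chr1:95290995-95291294, chr2:175794389-175794688 and chr1:24804782-24805081, all on the minus strand.
Opalin: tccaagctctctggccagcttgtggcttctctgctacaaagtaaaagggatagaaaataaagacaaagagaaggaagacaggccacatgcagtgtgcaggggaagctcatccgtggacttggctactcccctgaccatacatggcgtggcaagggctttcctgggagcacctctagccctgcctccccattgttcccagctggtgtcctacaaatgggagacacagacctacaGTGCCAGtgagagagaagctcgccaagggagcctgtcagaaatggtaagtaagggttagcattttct
Mag: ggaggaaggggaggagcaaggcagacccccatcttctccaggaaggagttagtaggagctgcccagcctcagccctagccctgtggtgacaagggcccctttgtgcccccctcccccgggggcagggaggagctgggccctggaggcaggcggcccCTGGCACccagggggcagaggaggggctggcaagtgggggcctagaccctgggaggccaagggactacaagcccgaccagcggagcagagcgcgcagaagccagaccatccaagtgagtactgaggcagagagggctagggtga
Hapln2: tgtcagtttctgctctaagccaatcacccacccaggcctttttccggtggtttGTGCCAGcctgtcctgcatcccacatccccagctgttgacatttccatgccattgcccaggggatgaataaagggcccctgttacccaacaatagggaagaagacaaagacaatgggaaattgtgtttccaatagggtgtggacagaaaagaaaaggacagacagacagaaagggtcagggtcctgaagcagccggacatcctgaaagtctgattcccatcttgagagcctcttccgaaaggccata
Sgk1: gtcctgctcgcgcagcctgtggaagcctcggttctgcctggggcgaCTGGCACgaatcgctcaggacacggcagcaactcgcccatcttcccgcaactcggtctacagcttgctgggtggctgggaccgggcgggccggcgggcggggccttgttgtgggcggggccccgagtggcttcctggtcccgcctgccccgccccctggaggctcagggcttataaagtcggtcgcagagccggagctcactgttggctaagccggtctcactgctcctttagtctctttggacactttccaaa
The match began 17 bases before the start site in Opalin, 94 in Mag, 197 in Hapln2 and 204 in the Sgk1 window, which is 1 of 3 windows of that gene. The short glucocorticoid receptor motif AGAACA was in none of the 3 Sgk1 windows nor in the Klf9 window, against 21.6% of all genes.

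The share of oligodendrocytes among kept nuclei was 17.7, 3.69 and 9.28% in the female pools and 9.18, 12.8 and 15.2% in the male ones. The 95% Wilson intervals of these shares, which cover counting error only, ran from 3.06% to 4.44% in female pool 2 and from 16.4% to 19.0% in female pool 1. The female mean was 10.2% ± 7.04 and the male mean 12.4% ± 3.05 (SD, n = 3 pools each), a difference of -2.20 percentage points (exact 2-sided permutation test, p = 0.7, where 3 against 3 cannot go below 0.1). The groups overlapped, and both the lowest and the highest pool were female. Within set A the female pool was 0.107 points above the male pool, and within set B the female mean was 3.35 points lower (-3.35). Without female pool 2 the difference turned to 1.07 points. Female pool 2 also lost 40.7% of its barcodes to the mitochondrial limit, against 1.55% to 23.9% in the other 5 pools, and with no such limit its share was 7.80%.

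The number of members per precursor nucleus was 4.91, 1.45 and 3.23 in the female pools and 4.04, 4.23 and 4.5 in the male ones. Female pool 2 was the lowest here too, and the other 5 pools lay between 3.23 and 4.91.

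Sex was compared by summing the counts of the members in each pool. The question, from the series title, is which genes differ with sex in each cell type. With label set as a covariate, 15 of 10961 genes passed edgeR's quasi-likelihood test at an adjusted p (Benjamini-Hochberg) under 0.05, or 0.137%, of which 10 were higher in females (0.0912%) and 5 in males (0.0456%). At an unadjusted p under 0.05 there were 1523 genes (13.9%), 793 higher in females (7.23%) and 730 lower (6.66%). In the members with little neuron RNA, 8 of 8935 genes passed (0.0895%), 4 in each direction (0.0448%), and 7 of these were among the 15. In that fit 484 genes were at an unadjusted p under 0.05, both directions together. DESeq2 called 145 genes, 119 of them higher in females. The count depended on single pools. It was 6, 8, 8 and 10 when male pool 1, male pool 2, female pool 3 or male pool 3 was left out, 295 when female pool 2 was, and 372 when female pool 1 was.

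Of the 15, 7 were features found in 1 sex almost alone. Kdm5d, a Y-linked histone demethylase gene, had 2.63, 0 and 1.08 CPM in the female pools and 96.8, 88.3 and 86.3 CPM in the male ones (log2 fold change of -5.98 with SE 0.37 and adjusted p = 6.14e-07). Eif2s3y, a Y-linked translation factor gene, had 0, 0 and 0.181 CPM in female pools and 64.9, 66.5 and 65.5 CPM in male pools. The feature named Ddx3 and the unnamed features AC241873.1 and AC239701.4 were likewise higher in every male pool than in any female pool. The unnamed AABR07039356.2 had 199, 407 and 345 CPM in the female pools and 2.81, 0 and 0 CPM in the male ones (log2 fold change of 7.60 with SE 0.46 and adjusted p = 6.14e-07). LOC680227 was high in females and uneven among them, at 3928, 1569 and 282 CPM in the female pools and 2.45, 2.29 and 0.992 CPM in the male ones. All 6 pools matched their sex label in the Y-linked Kdm5d and Eif2s3y. The unnamed features and LOC680227 were picked here by that label, so they cannot check it. Without male pool 1, AC239701.4 did not pass (adjusted p = 0.222). X-linked genes with a Y-linked relative did not pass. Kdm6a, a demethylase gene known to escape X inactivation, had 434, 305 and 441 CPM in the female pools and 298, 305 and 233 CPM in the male ones (log2 fold change of 0.49 with SE 0.22 and adjusted p = 0.347), with female pool 2 and male pool 2 at nearly the same level, and Kdm5c had a log2 fold change of 0.43 (adjusted p = 0.378). Non-overlap alone was common, at 8.06% of all genes.

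Sgk1, the glucocorticoid-induced kinase gene that regulates ion channels and transporters, was higher in females. It had 163, 160.4 and 144 CPM in the female pools and 83.8, 50.5 and 57.5 CPM in the male ones, with every female pool above every male pool (log2 fold change of 1.23 with SE 0.22 and adjusted p = 0.0416). These values rest on 41 to 800 Sgk1 UMIs per pool. The difference was 0.77 on the log2 scale within set A and 1.52 within set B.

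Other nuclei held more Sgk1 than the members did, at 188, 255 and 239 CPM in the female pools and 243, 203 and 162 CPM in the male ones, and neuronal RNA was on average higher in female members too, with Syt1 at 1977 ± 1000 CPM in females and 907 ± 536 CPM in males (mean ± SD, n = 3 pools). The sexes overlapped in Syt1. In the members with little neuron RNA, Sgk1 had 181, 87.1 and 70.4 CPM in the female pools and 26.9, 33.4 and 48.3 CPM in the male ones, and the sexes again did not overlap (log2 fold change of 1.76 with SE 0.28 and adjusted p = 0.00531). Syt1 was there at 138 ± 108 CPM in females and 124 ± 32.9 CPM in males, a level set by the restriction, which uses Syt1 and Snap25. Female pool 2 then had 9 Sgk1 UMIs. The part of neuronal RNA in the Sgk1 difference was not tested. In these nuclei Sgk1 was also lower in label set A (log2 fold change of -1.06 with SE 0.30 and adjusted p = 0.018), which it was not in all members (0.093). The call did not hold in every setting. The adjusted p was 0.164 with Scrublet doublets removed, 0.062 with at least 2 of 6 markers and 0.981 without the label set covariate, and it was 0.0716, 0.111, 0.301 and 0.155 without female pool 3 and without male pools 1, 2 and 3. The log2 fold change stayed between 1.08 and 1.76 in all 16 alternatives.

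Sgk1 also differed between sexes more in oligodendrocyte nuclei than in the rest of the tissue in part of the fits. The interaction of sex and class gave 1.10 against all other nuclei (SE 0.21, adjusted p = 0.0555), which missed the threshold. In the members with little neuron RNA it was 1.53 (adjusted p = 0.000311) and passed, and it ran from an adjusted p of 0.000311 to 1 over 11 alternatives. Against 563 astrocyte nuclei it was 0.032 (adjusted p = 0.999), so the sex difference was not seen to be larger than in astrocyte nuclei. That interaction ran from -0.17 to 0.58 over 11 alternatives. Sgk1 was low in astrocyte nuclei, at a mean of 33.7 CPM.

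**Figure D3:**
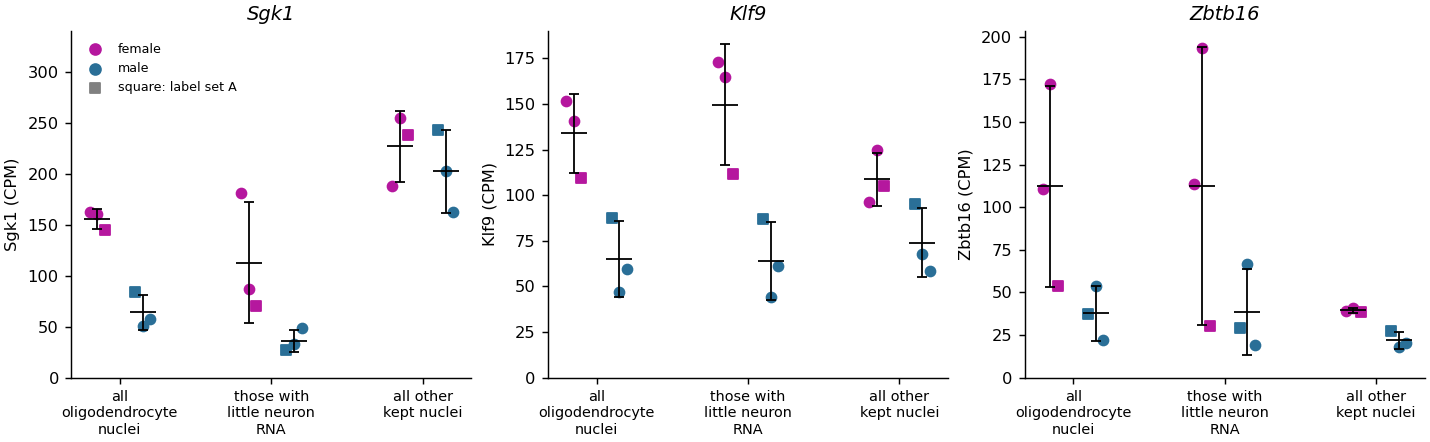
Points show Sgk1, Klf9 and Zbtb16 in CPM for each pool in all oligodendrocyte nuclei, in those with little neuron RNA and in all other kept nuclei, squares for label set A, with the mean and SD of 3 pools per sex. For Sgk1 and Klf9 every female pool lies above every male pool in both sets of oligodendrocyte nuclei, and in other nuclei the sexes overlap for Sgk1.

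Of the 16 genes of the glucocorticoid response list, 12 were tested and 1, Sgk1, passed, against 0.0912% of all genes in that direction. The list holds Sgk1, Klf9 and Zbtb16 and was chosen with earlier results of these data known. Its counts and medians are thus a description and not an independent test. The median log2 fold change of the list was 0.19, with -0.032 over all genes, and in nuclei with little neuron RNA it was 0.77 over its tested genes, with 0.0032 over all genes. Klf9, a zinc finger gene, had 151, 141 and 109 CPM in the female pools and 87.7, 47 and 59.5 CPM in the male ones (log2 fold change of 0.97 with SE 0.25 and adjusted p = 0.116), and its sexes did not overlap. In nuclei with little neuron RNA it had 173, 165 and 112 CPM in the female pools and 86.8, 44 and 61.2 CPM in the male ones (log2 fold change of 1.16 with SE 0.26 and adjusted p = 0.169). Klf9 was 0.31 within set A and 1.40 within set B. Zbtb16 had 111, 172 and 53.8 CPM in the female pools and 37.2, 53.9 and 21.8 CPM in the male ones (log2 fold change of 1.27 with SE 0.33 and adjusted p = 0.118), with overlap of female pool 3 and male pool 2. DESeq2 called all 3 genes, with 1.03 for Klf9 (adjusted p = 0.0325) and 1.37 for Zbtb16 (adjusted p = 0.027). Of the 12 tested genes 8 had a log2 fold change above 0. At an unadjusted p under 0.05 there were 4 higher and 1 lower in females, against 7.23% and 6.66% of all genes. In nuclei with little neuron RNA 9 of 11 were above 0, and 6 were higher at an unadjusted p under 0.05. Over all genes, 484 of 8935 were at that level there, both directions together. As further examples, Fkbp5, which restrains the glucocorticoid receptor, had a log2 fold change of 0.025 (adjusted p = 0.988), and Tsc22d3, a leucine zipper gene induced by glucocorticoids, had -0.32 (adjusted p = 0.661). The receptor gene Nr3c1 itself had 62.8 ± 13.8 CPM in females and 74.6 ± 16.3 CPM in males (log2 fold change of -0.21 with SE 0.22 and adjusted p = 0.741).

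The other 7 passing genes, Srrm4, Cntn6, Hs6st3, Plcxd3, Klhl29, Gabrb2 and Adra1a, were all higher in females and all lower in members than in other nuclei on average. Srrm4, a neuronal splicing factor gene, had 101, 117 and 111 CPM in the female pools and 34, 6.88 and 35.7 CPM in the male ones (log2 fold change of 2.0 with SE 0.33 and adjusted p = 0.0416). In nuclei with little neuron RNA its level was 0 to 18.2 CPM and it was not tested there. Gabrb2, a GABA-A receptor subunit gene, had 122, 164 and 246 CPM in the female pools and 116, 41.3 and 63.5 CPM in the male ones (log2 fold change of 1.23 with SE 0.21 and adjusted p = 0.0416), and in nuclei with little neuron RNA 6.32, 0 and 85 CPM in the female pools and 37.9, 7.59 and 12.9 CPM in the male ones (log2 fold change of 0.55 with SE 0.43 and adjusted p = 0.927). Klhl29 averaged 196 CPM in all members and 19.7 CPM in those with little neuron RNA, and its log2 fold change went from 1.38 to -0.066. The contactin gene Cntn6 went from 1.34 to -0.50, the sulfotransferase gene Hs6st3 from 1.37 to 0.80 and the phospholipase-like gene Plcxd3 from 1.32 to 0.33. The adrenergic receptor gene Adra1a kept its size, at 1.30 and 1.16, but did not pass in the second fit (adjusted p = 0.848). None of these 7 passed in nuclei with little neuron RNA. That fit called Grm7, a metabotropic glutamate receptor gene, at 82.2, 194 and 382 CPM in the female pools and 144, 36.4 and 41.8 CPM in the male ones (log2 fold change of 1.41 with SE 0.24 and adjusted p = 0.0157), in addition to Sgk1 and 6 sex-limited features, and there female pool 1 lay below male pool 1. In all members each of the 7 genes lost its call without female pool 3 and without male pool 1, with adjusted p of 0.0716 to 0.413 over these fits.

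**Figure D4:**
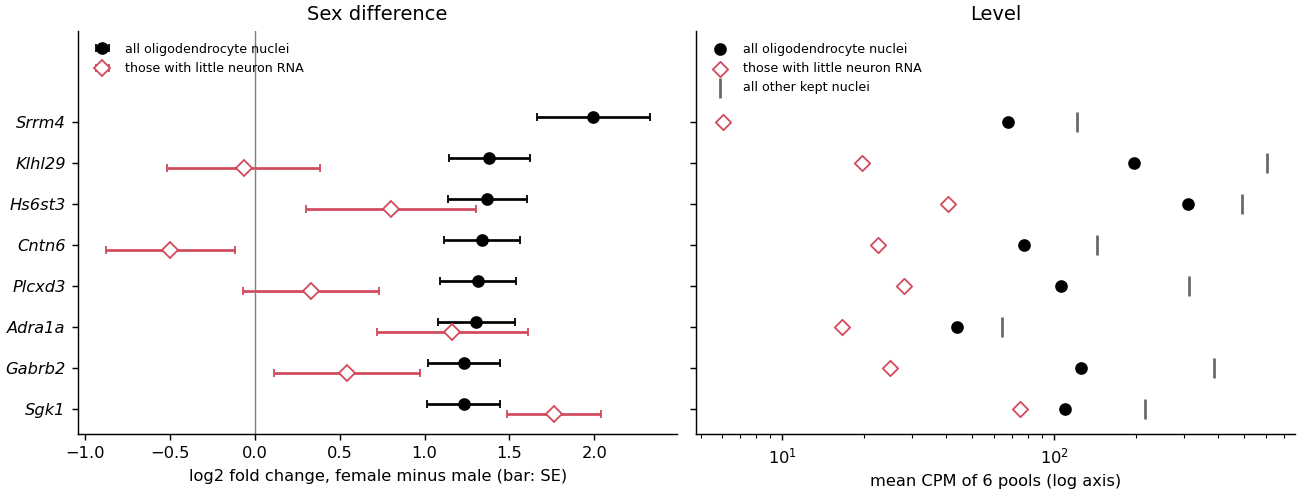
For the 8 passing genes that are not sex-limited, the left panel shows the log2 fold change, female minus male, with its SE in all oligodendrocyte nuclei and in those with little neuron RNA, and the right panel the mean CPM of 6 pools (log axis) in both and in all other kept nuclei. Of the 7 genes tested in both, Sgk1 alone has a larger fold change in the nuclei with little neuron RNA, while Cntn6 and Klhl29 change sign; Srrm4 has no fold change there.

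The 10 genes next in line by p did not pass, with adjusted p from 0.0507 to 0.0708, but each passed without female pool 1 and without female pool 2. LOC100359583 was lower in females, at 142, 117 and 70.4 CPM in the female pools and 143, 275 and 277 CPM in the male ones (log2 fold change -1.07), and was at -0.92 in nuclei with little neuron RNA. The other 9 were higher in females and lower in members than in other nuclei: the netrin receptor gene Unc5d, Zfp385d, the orphan nuclear receptor gene Nr4a3, Nav2, the glutamate receptor gene Grik3, the acetylcholine receptor gene Chrna7, the ion channel gene Asic2, Nebl and Cntnap4. Their log2 fold changes ran from 1.12 to 2.43. Of 8 tested neuron markers, 0 passed for sex in edgeR, with 2 at an unadjusted p under 0.05 and 1 in DESeq2. Their median was 0.53 in all members and 0.11 in those with little neuron RNA. The second median is in part set by the restriction, which uses the markers Syt1 and Snap25. The part of neuronal RNA in the differences of these 16 genes was not tested.

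Genes of the myelin sheath did not pass in either direction. The 6 genes of the rule are left out of these counts. Of 15 tested structural genes outside the rule, 0 passed in edgeR, with 6 at an unadjusted p under 0.05, all 6 lower in females, against 6.66% of all genes, and DESeq2 called 2, among them Cnp, also lower in females. Of the 15, 13 had a log2 fold change below 0 and the median was -0.45. In nuclei with little neuron RNA the median was -0.20, with 4 lower and 2 higher at an unadjusted p under 0.05. Cnp, the myelin phosphodiesterase gene, had 212, 179.9 and 148 CPM in the female pools and 244, 336 and 485 CPM in the male ones, with the sexes apart (log2 fold change of -0.95 with SE 0.22 and adjusted p = 0.112). Gjb1, the connexin 32 gene, had 30.9, 23.5 and 11.2 CPM in the female pools and 29.1, 50.5 and 93.3 CPM in the male ones (log2 fold change of -1.35 with SE 0.27 and adjusted p = 0.0834) and -0.97 in nuclei with little neuron RNA (adjusted p = 0.797). Mbp had 3892 ± 1289 CPM in females and 4417 ± 691 CPM in males (log2 fold change of -0.25 with SE 0.29 and adjusted p = 0.773). Without female pool 1, edgeR called 3 of the 15 lower in females, among them Cnp and Gjb1, and without female pool 2 it called Cnp and Gjb1. Ribosomal protein genes lay on the same side, with a median of -0.63 over 62 tested genes, 51 of them lower in females at an unadjusted p under 0.05 (against the same 6.66%), 0 called in edgeR and 5 in DESeq2, and a median of -0.41 in nuclei with little neuron RNA. Their part in the myelin values was not tested.

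The remaining lists gave no call in edgeR in all members. Of all genes, 7.23% were higher and 6.66% lower in females at an unadjusted p under 0.05 in that fit. Of 10 tested lineage transcription factors, 0 passed, with 3 at an unadjusted p under 0.05 and 0 in DESeq2, and the medians were -0.33 and, with little neuron RNA, -0.08. Sox10 was at -0.61 (adjusted p = 0.194) and Myrf at -0.30 (adjusted p = 0.612). Of 12 genes of myelin lipid synthesis, 0 passed in edgeR or DESeq2 and 0 were at an unadjusted p under 0.05, with Ugt8, the galactolipid enzyme gene, at -0.50 and Fa2h at 0.049. Their median was -0.39, and -0.15 with little neuron RNA. Of 18 genes of cholesterol synthesis, 0 passed in edgeR or DESeq2, with 2 at an unadjusted p under 0.05, both lower in females, and medians of -0.20 and, with little neuron RNA, -0.10. Hmgcs1, an early enzyme of the pathway, had 52, 43 and 51.5 CPM in the female pools and 60, 50.5 and 60.5 CPM in the male ones, a narrow range over pools.

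Of 11 tested genes that mark subtypes of mature cells, 0 passed in edgeR, with 7 at an unadjusted p under 0.05, 6 of them lower in females, and DESeq2 called Grm7 as higher and the ferritin gene Fth1 as lower. The median was -0.52, and -0.29 with little neuron RNA, where Grm7 was called higher. Fth1 had 430, 477 and 185 CPM in the female pools and 370.3, 602 and 831 CPM in the male ones (log2 fold change of -0.81 with SE 0.22 and adjusted p = 0.127). The protease gene Klk6 was at -0.87 (adjusted p = 0.13). Of 10 newly formed stage genes, 0 passed in edgeR or DESeq2, with 1 at an unadjusted p under 0.05, lower in females. Their median turned from -0.15 to 0.37 with little neuron RNA, where 0 of 9 passed and 2 were higher at an unadjusted p under 0.05. Enpp6, a marker of newly differentiating cells, had 82.3, 35.2 and 70.8 CPM in the female pools and 110.5, 138 and 100.2 CPM in the male ones (log2 fold change of -0.75 with SE 0.25 and adjusted p = 0.201). Of 18 genes of axon support and ion handling, 0 passed in edgeR, with 7 at an unadjusted p under 0.05, all higher in females, and DESeq2 called Gria4 and Kcnma1. With little neuron RNA 0 were higher and 1 was lower at an unadjusted p under 0.05, and the medians were 0.054 and 0.15. Slc16a1, the lactate transporter gene, had 17.3 ± 4.81 CPM in females and 30.4 ± 7.65 CPM in males (log2 fold change of -0.57 with SE 0.29 and adjusted p = 0.407). Of 19 receptor and adhesion genes, 11 steroid and thyroid receptors and 13 early response and heat shock genes, 0 passed in edgeR, with 3, 1 and 5 at an unadjusted p under 0.05, and DESeq2 called Homer1 of the last list alone. The median of the last list went from -0.059 to -0.45 with little neuron RNA, that of the receptor and adhesion genes from -0.08 to -0.013 and that of the steroid and thyroid receptors from -0.054 to -0.013.

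A sex difference that differed from that of other cells was tested directly. Against astrocyte nuclei 13 of 11113 genes passed the interaction (0.117%), 5 with a larger female to male ratio in oligodendrocyte nuclei (0.045%) and 8 with a smaller one (0.072%). With little neuron RNA it was 14 of 10362 (0.135%; 0.0386% larger, 0.0965% smaller), 7 of them among the 13. DESeq2 called 0, with 157 at an unadjusted p under 0.05. Against all other nuclei 1 of 15969 passed (0.00626%), Zfp385d, and DESeq2 called 0 with 422 at an unadjusted p under 0.05. Zfp385d, a zinc finger gene, had 179, 329 and 274 CPM in the female pools and 115, 28.7 and 81.4 CPM in the male ones in members. In other nuclei it had 671, 551 and 551 CPM in the female pools and 583, 563 and 503 CPM in the male ones, and the interaction was 1.63 on the log2 scale (adjusted p = 0.0378). It passed with each pool left out in turn, while the number of genes was 591 when female pool 1 was left out and 139 when male pool 3 was. Against astrocyte nuclei the count was 1 without female pool 2 or male pool 2. In nuclei with little neuron RNA its level was 1.61 to 80.1 CPM, and it was not among the 2 of 15183 genes that passed there (0.0132%, both with a larger ratio).

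The label sets differed far more than the sexes did. Of 10961 genes, 2541 (23.2%) passed the label set term of the same edgeR fit, 973 higher in set A and 1568 higher in set B. In nuclei with little neuron RNA 1641 of 8935 (18.4%) passed, 6.7% higher and 11.7% lower in set A, and 1345 of them were also among the 2541. With DESeq2 the count was 1696, with 19681 genes tested, and the median of all genes was -0.18 in place of 0.0045. Without female pool 3 the count was 613 and without male pool 1 it was 775, and each of these leaves 1 pool of set A. Depth and RNA quality moved with the sets: the median mitochondrial share of members was 0.259% and 0.463% in set A and 1.80% to 3.90% in set B. All 13 tested mitochondrial genes and 58 of 62 tested ribosomal protein genes were called lower in set A (medians -2.51 and -1.54 on the log2 scale), and their medians were -2.50 and -1.55 in nuclei with little neuron RNA. Both set A pools also had the lowest percent of nuclei with little neuron RNA. The label set and these measures cannot be told apart.

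Part of the myelin genes were lower in set A. Of 15 tested structural genes outside the rule, 7 were called lower (among them Cnp, Mal, Gjb1, Cadm4 and Omg) and 0 higher, against 14.3% of all genes called lower, with a median of -0.71, while 38.1% of all genes had sets that did not overlap. With little neuron RNA 3 were called lower, among them Gjb1 and Omg, against 11.7% of all genes, and the median was -0.43. Sox10 had 198, 176 and 73.1 CPM in the female pools and 126, 297 and 230.2 CPM in the male ones (log2 fold change of -1.34 with SE 0.22 and adjusted p = 0.000822). Sox10 was at -1.02 in nuclei with little neuron RNA (adjusted p = 0.0019). Of 11 mature subtype genes, 7 were called lower in set A, namely Klk6, Ptgds, Apod, Qdpr, Cryab, S100b and Fth1, and 6 of these in nuclei with little neuron RNA. Ptgds, the prostaglandin D synthase gene, had 379.9, 575 and 160.2 CPM in the female pools and 302, 423 and 764 CPM in the male ones (log2 fold change of -1.37 with SE 0.28 and adjusted p = 0.00397). The 7 calls in the myelin list became 0 without male pool 1, 1 (Gjb1) without female pool 3, 3 without male pool 2, 4 without male pool 3 and 12 without female pool 2. The call of Sox10 was lost without female pool 3 (adjusted p = 0.0576), and the 7 calls of the mature subtype list became 0 without female pool 3 and 3 without male pool 1.

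Markers of other cell types moved with the label sets too. Over all genes, 8.88% were called higher and 14.3% lower in set A. Of 5 tested microglial markers 3 were called lower in set A, Cx3cr1, C1qa and C1qb (median -1.84), and their 8 measured markers summed to 40 and 48.8 CPM in set A and 82.3 to 243 CPM in set B. Of 6 tested astrocyte markers 2 were called higher, Slc39a12 and Slc1a2 (median 0.74), with sums of 9 measured markers of 488 and 533 CPM in set A and 275 to 435 CPM in set B. Of 8 tested neuron markers 3 were called higher, Snap25, Syt1 and Slc17a7 (median 0.41), with sums of 2469 and 3905 CPM in set A and 1098 to 3513 CPM in set B. Of 5 tested precursor markers Ptprz1, Tnr and Pcdh15 were called higher and Cspg4 lower, with sums of 488 and 626 CPM in set A and 257 to 446 CPM in set B. With little neuron RNA C1qa alone of the microglial markers, 0 astrocyte markers, Syt1 and Slc17a7 of the neuron markers, and Ptprz1 and Tnr of the precursor markers were called. The shares over all genes in that fit were 6.7% higher and 11.7% lower. The part of these cell types in the set differences was not tested.

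Cholesterol synthesis genes were level between the sets, with 1 of 18 called (higher in set A), a median of -0.10, and 0 called in nuclei with little neuron RNA. Of 12 glucocorticoid response genes, Pdk4, Ddit4 and Mt1 were called lower in set A and 0 higher, with a median of -0.58, against 14.3% of all genes called lower. With little neuron RNA, Sgk1, Zbtb16, Ddit4 and Mt1 of 11 were called lower and 0 higher, with a median of -0.46, against 11.7%. Of 18 genes of axon support and ion handling, 6 were called higher in set A (Grin2a, Grin2c, Gria2, Slc1a2, Kcnma1 and Kcnk10), against 8.88% of all genes, and the lactate dehydrogenase gene Ldha was called lower. With little neuron RNA 5 of 17 were called higher (Grin1, Grin2b, Gria2, Gria4 and Kcnma1), against 6.7% of all genes, and Ldha was called lower. Gria2 and Kcnma1 were thus called higher in both fits. Slc1a2 is also one of the astrocyte markers called higher in set A. Without female pool 3 none of these 7 calls was made, and without male pool 1 there were 3 higher and 1 lower. The glutamate receptor gene Gria2 had 502, 853 and 1338 CPM in the female pools and 1030.4, 491 and 522 CPM in the male ones (log2 fold change of 0.90 with SE 0.24 and adjusted p = 0.0152) and a mean of 2160 CPM in other nuclei.

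**Figure D5:**
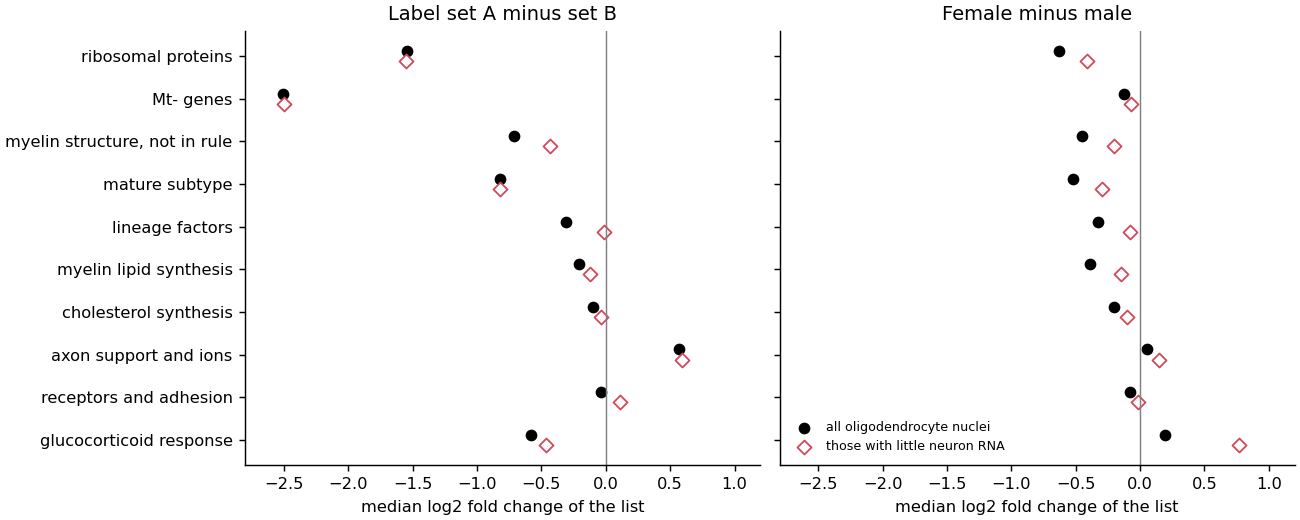
Each point is the median log2 fold change of a gene list in oligodendrocyte nuclei (myelin structure without the genes of the rule), for label set A minus set B (left) and female minus male (right), in all oligodendrocyte nuclei and in those with little neuron RNA. Ribosomal protein and mitochondrial genes have the lowest medians between the sets, at -1.54 and -2.51, and the glucocorticoid response list has the highest median between the sexes, at 0.77 in nuclei with little neuron RNA.

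Among genes that passed with the sets apart, those with the largest changes toward set B held Galnt5, a glycosylation enzyme gene, and Tshb, the thyrotropin beta subunit gene. Galnt5 had 70.5, 15.6 and 1.63 CPM in the female pools and 3.86, 84.9 and 52.6 CPM in the male ones (log2 fold change of -4.70 with SE 0.48 and adjusted p = 6.91e-05) and averaged 1.59 CPM in other nuclei. Tshb had 110, 15.6 and 2.17 CPM in the female pools and 3.86, 51.6 and 39.7 CPM in the male ones (log2 fold change of -4.60 with SE 0.57 and adjusted p = 0.000144), against 3.08 CPM in other nuclei. Both kept their size in nuclei with little neuron RNA, at -4.73 and -4.62. The other 8 were unnamed or noncoding features, among them LOC689757 and RGD1561034, and their log2 fold changes ran from -5.87 (AABR07003492.1) to -4.18 (RGD1561034). Toward set A the leading genes were Slc17a7, Ccn3, Trabd2b, Prss12, AC126641.1, Cyyr1, Cck, Sox5, Slc15a2 and Plekha2. Slc17a7, the vesicular glutamate transporter gene of cortical neurons, had 61.2 and 40.7 CPM in female pool 3 and male pool 1 and 0 in each set B pool, and the peptide gene Cck had 2.63, 7.82 and 43.2 CPM in the female pools and 23.5, 2.29 and 3.97 CPM in the male ones. Of these 10, AC126641.1, Cck, Slc17a7 and Sox5 were tested in nuclei with little neuron RNA and passed there, with log2 fold changes of 3.47 for AC126641.1, 2.40 for Cck and 2.09 for Sox5. Slc17a7 had 0 UMIs in every set B pool there too. With 1 pool of set A left out the calls of Ccn3, Trabd2b, Prss12, Slc15a2, Plekha2 and, toward set B, AABR07071968.1 were lost.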

How the data were processed

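Nuclei of 6 pools were profiled with the 10x Genomics 3' kit. The deposited values are raw UMI counts of 32883 features, made with Cell Ranger 4.0.0 per the file headers, and the submitters' processing notes name the rat build rn6. The release of the annotation was not given in the sources used here. Counts of member nuclei were summed per pool, giving 255642 to 5537888 UMIs, and tested with edgeR 4.0.16 (TMM, filterByExpr, quasi-likelihood F test, label set as covariate); interaction fits had the library as a block and a class by label set term. DESeq2 1.42.0 on R 4.3.3 was an alternative. The SE is the log2 fold change divided by the square root of F. Scrublet (scanpy 1.11.5) was run per library; its automatic cut marked at most 1.93% of kept nuclei, so a loading rate of 0.8% for every 1000 nuclei set the number marked (298 members), removed in an alternative only. On simulated counts the sex fit recovered 48% of 200 genes changed 2-fold (10670 genes tested) and 97% of those changed 4-fold (10727).

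Named genes are those past the threshold (up to 15 by p for sex, then the 10 next; up to 10 a direction by size for the label set, with the sets apart), examples of fixed lists, and the 20 highest ratios to other nuclei. Members and lists were chosen with earlier results of these data known. The mitochondrial and ribosomal lists were added after values were seen. Astrocyte nuclei had at least 3 of Aqp4, Gja1, Gjb6, Ntsr2, Fgfr3 and Slc39a12. Precursor nuclei had Pdgfra and at least 2 further precursor genes. Intervals cover counting error only. Some genes of the lists are not reported here by name.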

Additional observations from a re-analysis of the deposited data

Results flagged for a closer look

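The sex difference differed between oligodendrocyte and astrocyte nuclei for 13 genes by the edgeR interaction test, and for 1 gene between oligodendrocyte and all other nuclei. Values are log2, the female minus male difference in oligodendrocyte nuclei less that in the other class. The difference was positive for Bcas1 (2.90), AABR07050265.1 (2.67), Adra1a (1.51), Phactr3 (1.5) and Alk (1.17). It was negative for Tmeff2 (-2.03), Anks1b (-1.87), Slc8a1 (-1.85), Nkain2 (-1.69), Ccdc85a (-1.66), Ank3 (-1.51), Cntn5 (-1.40) and Foxp2 (-1.36). Zfp385d had 1.63 against all other nuclei.

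Bcas1 was at 1002 and 1180 CPM in oligodendrocyte nuclei of females and males, and in astrocyte nuclei it was at 246 CPM in male pool 1 and 0 to 29.1 CPM in the other 5 pools. Anks1b was at 3340 and 3112 CPM in oligodendrocyte nuclei, and in astrocyte nuclei it was at 394 to 1497 CPM in the female pools and male pool 1, and at 80.7 and 63.0 CPM in male pools 2 and 3. Astrocyte nuclei numbered 12 in female pool 2 and 49 in male pool 2, which limits these values. Neuron markers in astrocyte nuclei summed to 1417, 1996 and 3085 CPM in the female pools. In the male pools they summed to 1977, 416 and 567 CPM, so they too were lowest in male pools 2 and 3. The part of neuronal RNA in these interactions was not tested. Zfp385d had a lower range in oligodendrocyte nuclei with little neuron RNA than in all of them, and the part of neuronal RNA in its interaction was not tested.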

How the results depend on the processing

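The main count of 15 genes for sex became 145 with DESeq2, 435 with no filter on low counts, 9 with at least 2 of 6 markers, 8 with Pde10a at 0, with Scrublet doublets removed or with little neuron RNA, and 6 without the label set covariate, and was 6 to 372 with a pool left out. With the replicate number as a block it was 40. Deviations of same-numbered pools correlated at -0.59, 0.08 and -0.45, and female pool 3 went with male pool 1 (0.72). Those 2 pools are label set A, so the check cannot tell a pairing by number apart from the label sets. The label set count of 2541 was 1641 with little neuron RNA and 613 to 3585 with a pool left out. Against astrocytes the 13 interaction genes became 0 with DESeq2 and 0 without the class by label set term (364 at an unadjusted p under 0.05), and 1 to 23 with a pool left out. Against all other nuclei the single gene became 0 with DESeq2, 105 with no filter, 28 with at least 4 of 6 markers, 0 without the class by label set term (532 at an unadjusted p under 0.05), 2 with little neuron RNA and 3 to 591 with a pool left out. The share difference was -5.93 to 1.07 points with a pool left out and turned to 1.07 without female pool 2. With little neuron RNA the sex difference of Cntn6 turned to -0.50 and of Klhl29 to -0.066, and the label set difference of Sgk1 to -1.06. Over 32 genes named for sex, 371 of 508 alternative values stayed on their side of the threshold. The mitochondrial limit of 1% was not run, since it left 0 members in female pool 2. Female pool 2, with 106 members, limits every value.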

Other observations

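Further genes of the glucocorticoid response list were low but concentrated in these nuclei. Sgk2, a paralog of Sgk1, had 15.1, 23.5 and 12.6 CPM in the female pools and 19.6, 26.4 and 30.8 CPM in the male ones, against a mean of 0.889 CPM in other nuclei and 1.16 CPM in precursor nuclei. Its sex difference had the opposite sign to that of Sgk1 and did not pass (log2 fold change of -0.71 with SE 0.28 and adjusted p = 0.285). Pdk4, which restrains pyruvate use, had 22.4, 3.91 and 6.86 CPM in the female pools and 3.16, 9.17 and 4.96 CPM in the male ones, against 0.854 CPM in other nuclei on average. Its sexes overlapped, with female pool 1 the highest (log2 fold change of 1.25 with SE 0.47 and adjusted p = 0.254). The Pdk4 values rest on few UMIs in the male pools and in female pool 2, whose members held 255642 UMIs in all.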
